A study of Mus musculus with 54 samples.

Results

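Transcripts of the plasminogen activator system and of related serpins were described across the sides of ex vivo cultured mouse follicles. The members were the rows of the gene tables with the symbols *Plat*, *Plau*, *Plaur*, *Serpine2*, *Serpinb2*, *Serpinb9*, *Serpina3n*, *Serpinf1* and *Serpinh1*, and all 9 were found among the 25149 genes listed. Follicles came from CD-1 mice aged 14 to 16 days and were grown singly in alginate for 8 days. Each was then kept for 12 h in maturation media with serum, EGF and rFSH, with or without human chorionic gonadotropin (hCG), the luteinizing hormone analogue that triggers ovulation. Without hCG no rupture takes place, and the site was predicted from the swelling of the antral cavity and imaging, which gave a putative ruptured side (14 libraries) and a putative unruptured side (15 libraries). Post-hCG the cut separated the actual ruptured side (13 libraries) from the unruptured side (12 libraries). Each library came from 1 follicle side with the cumulus-oocyte complex removed, whereas the tissue label of every sample names that complex. Isolated follicles in culture have no blood supply. The labels do not tell which sides shared a follicle or a mouse, so p-values measure the spread between these libraries.

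Libraries held between 1497071 and 2834734 counts. The 7 oocyte markers summed to medians of 0 to 0.2 TPM (transcript level scaled to gene length and library) in the 4 groups, so oocyte RNA was near absent in most libraries. The highest sums were 128 TPM in putative unruptured replicate 1 and 20.5 TPM in putative ruptured replicate 12. These are the 2 libraries with oocyte markers that later fits left out. Lower sums were seen in others, up to 8.35 TPM in putative unruptured replicate 7 and 6.43 TPM in unruptured post-hCG replicate 4. The 5 cumulus markers summed to medians of 5.69 TPM on the putative unruptured side (range 1.95 to 34.1) and 8.49 TPM on the putative ruptured side (range 3.49 to 101). Post-hCG the medians were 41.7 TPM on the unruptured side (range 13.5 to 80.9) and 21.9 TPM on the ruptured side (range 15.1 to 36.02). *Tnfaip6* or *Ereg* was the highest of them in each group. *Has2* went the other way with hCG, from a median of 0.38 to 0.145 TPM on the unruptured and 1.485 to 0.06 TPM on the ruptured side. *Ptx3* had medians of at most 0.25 TPM. Whether cumulus cells were left on the sides was not tested. The 8 theca and stroma markers summed to a median of 497 TPM (range 24.3 to 2764) on the putative unruptured side and 34.2 TPM (range 4.12 to 564) on the putative ruptured side. Post-hCG these sums were 286 TPM (range 55.1 to 1328) on the unruptured and 4.52 TPM (range 1.10 to 50.7) on the ruptured side. The theca enzyme gene *Cyp17a1* was near absent from both sides post-hCG, with 0 counts on the ruptured side and 0 to 1.21 TPM (median 0) on the unruptured side. All 6 theca and stroma markers tested were lower on the ruptured side without hCG, and all 5 tested were lower there post-hCG. Of the granulosa markers, 5 of 6 tested were higher on the putative ruptured side and 1 of 3 tested was higher on the ruptured side post-hCG. In tissue pieces of this kind, fewer cells of a type and less RNA per cell cannot be told apart.

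Plasminogen activators are serine proteases that convert circulating plasminogen into plasmin, which degrades fibrin and matrix and activates other proteases. Tissue-type activator is encoded by *Plat* and urokinase-type activator by *Plau*, and the latter acts at the cell surface when bound to its receptor, encoded by *Plaur*. Serpins such as those encoded by *Serpine2* and *Serpinb2* trap these proteases in inactive complexes. In the ovary, gonadotropins are known to regulate activators and inhibitors before ovulation, and plasmin is one of the proteases able to weaken the follicle wall. Other members act elsewhere: *Serpinb9* encodes an inhibitor of granzyme B, *Serpina3n* an extracellular inhibitor of several immune-cell proteases, *Serpinf1* the antiangiogenic pigment epithelium-derived factor, and *Serpinh1* a collagen chaperone, the last a pair of serpins that do not inhibit proteases.

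The first comparison asked how the sides differed before an ovulatory stimulus. Of the 7 members that passed the filter on low counts, 6 differed between the putative sides with edgeR's quasi-likelihood test at an adjusted p under 0.05, against 17.8% of the 9063 genes tested. *Serpine2* alone was higher on the putative ruptured side (8.84% of all genes were called in that direction), and *Plat*, *Serpinb9*, *Serpina3n*, *Serpinf1* and *Serpinh1* were lower there (8.96%). The median log2 fold change was -0.54 over the 7 members and -0.01 over all genes tested. The members were chosen with earlier results of these data known, so contrasts with all genes do not test the set. With putative unruptured replicate 1 and putative ruptured replicate 12 left out, 5 members were called.

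Post-hCG, 5 of 6 members that passed the filter differed between the sides, against 21.4% of 8585 genes. *Serpine2* and *Serpinb9* were higher on the ruptured side (10% of genes), and *Plat*, *Plau* and *Serpina3n* were lower (11.3%). The median log2 fold change was -0.33 over these 6 members and 0.01 over all genes tested. *Plaur*, *Serpinb2* and *Serpinf1* fell under the filter in this comparison. In the fit with no filter on low counts, where 10.8% of 20349 genes were called, these 3 were also lower on the ruptured side (6.34% of genes), so that 8 of 9 members were called.

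The media were then compared within each side. The side was predicted without hCG and actual post-hCG, so a change with hCG cannot be told apart from a change in what was cut. On the unruptured side, 4 of 8 members tested changed with hCG, 1 upward (*Serpinb2*; 25.4% of genes rose) and 3 downward (*Serpinb9*, *Serpina3n* and *Serpinf1*; 27.7% fell), against 53.1% of 9320 genes. On the ruptured side, 2 of 5 members tested changed, both downward (*Plau* and *Serpine2*; 30.4% of genes fell and 29.7% rose), against 60.1% of 8531 genes. The fit with no filter called 4 of 9 members there, all of them lower (17.8% of genes), against 33.7% of 20569 genes in either direction. On the unruptured side the unfiltered fit also called 4 of 9 members, against 29.5% of 20960 genes. Of the filtered shares, 4 of 8 was near that of all genes and 2 of 5 was below it. The unfiltered shares of members were above that of all genes, which there includes many genes with few counts. With so few members, each share turns on few genes. The interaction term, which tests whether the side difference post-hCG differed from that without hCG, passed for 3 of 8 members (*Serpine2*, *Serpinb2* and *Serpinb9*), against 8.91% of 10013 genes (4.25% above 0, as for *Serpinb9*, and 4.65% below 0). Without the 2 libraries that held oocyte markers, 2 members passed. In the unfiltered fit 2 of 9 passed (*Serpinb9* and *Serpinb2*), against 3.21% of 21985 genes. *Serpinb2* fell under the filter in both side comparisons. Its median was 15.03 TPM on the unruptured side post-hCG and at most 2 TPM in the other groups. It passed the filter only in comparisons that held both unruptured groups, those with its highest medians.

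**Figure D1:**
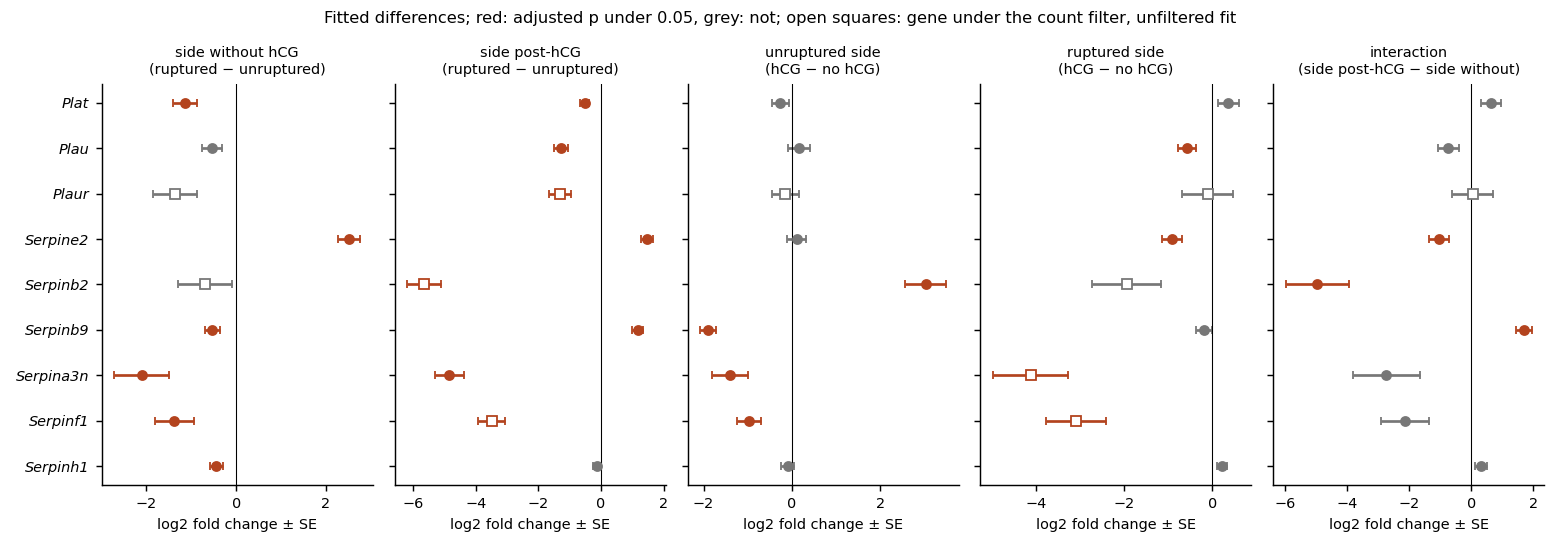
Log2 fold change of each member (points) with its standard error (bars) in the 5 comparisons, from edgeR; red marks an adjusted p under 0.05, grey one above, and open squares mark genes under the count filter, taken from the unfiltered fit. *Serpine2* lies right of 0 in both side comparisons (2.52 and 1.47), *Serpina3n* lies left of 0 in both (-2.10 and -4.85), and *Serpinb9* lies on opposite sides of 0 (-0.53 and 1.17).

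The interaction test passed for *Serpinb2*, *Serpine2* and *Serpinb9*, and their promoter sequences are shown for that reason. For *Serpine2* it did not pass in every alternative. RefSeq promoter windows (GRCm38.p6) matched 7 of the 9 members by symbol, and *Plat* and *Plau* are named only. The 250 bases before 1 RefSeq start of each gene are printed, for *Serpinb2* the outer of 2 annotated starts, 5′ to 3′ in the sense of the gene. Capitals mark every match on either strand to 8 motifs. The cAMP response element was searched as TGACGTCA, a variant of this element as TGACATCA, and the core shared with the full element as TGACG. The other motifs were the binding motif of AP-1 factors, searched as TGANTCA, the motif of the steroidogenic factor, searched as AAGGTCA, the GC-rich Sp1 motif, searched as GGGCGG, the motif of NF-Y, searched as CCAAT, and the TATA motif, searched as TATAAA.
Serpinb2, chr1:107511173-107511422, plus strand: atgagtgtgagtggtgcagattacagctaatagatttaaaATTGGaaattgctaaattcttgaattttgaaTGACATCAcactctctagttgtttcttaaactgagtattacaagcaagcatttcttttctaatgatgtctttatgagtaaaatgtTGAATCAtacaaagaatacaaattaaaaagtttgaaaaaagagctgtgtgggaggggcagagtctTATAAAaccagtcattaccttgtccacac
Serpine2, chr1:79858666-79858915, minus strand: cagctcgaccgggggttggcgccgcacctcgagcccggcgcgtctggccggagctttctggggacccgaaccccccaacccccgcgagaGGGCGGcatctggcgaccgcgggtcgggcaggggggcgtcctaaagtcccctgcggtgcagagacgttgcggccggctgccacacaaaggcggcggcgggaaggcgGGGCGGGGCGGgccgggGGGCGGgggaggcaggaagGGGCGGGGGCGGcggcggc
Serpinb9, chr13:33004291-33004540, plus strand: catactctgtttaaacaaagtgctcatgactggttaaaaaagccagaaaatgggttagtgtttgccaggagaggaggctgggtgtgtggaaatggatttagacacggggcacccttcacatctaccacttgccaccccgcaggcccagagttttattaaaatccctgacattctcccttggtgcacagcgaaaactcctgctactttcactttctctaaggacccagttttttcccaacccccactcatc

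The *Serpinb2* window held the response element variant 179 to 172 bases before the start, an AP-1 match, a TATA motif and an NF-Y motif on the opposite strand. The window of the second *Serpinb2* start, 87 bases further on, held the AP-1 and TATA matches and neither the variant nor the NF-Y motif. Of 32817 windows of the same length, 2.93% held the variant, 6.75% an AP-1 match, 12.4% the TATA motif and 33.8% the NF-Y motif. In the *Serpine2* window 78.8% of bases were G or C, with 6 Sp1 motifs, a motif held by 32.7% of windows. The *Serpinb9* window had 47.6% G or C and none of the 8 motifs. The RefSeq starts of *Serpine2* and *Serpinb9* lie 2515 and 1291 bases inside the GENCODE gene bounds, so the windows do not cover the outermost annotated starts. These matches describe letters in a window and no binding was measured.

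*Plat* (GRCm38 chromosome 8, 22757727 to 22782844) was lower on the ruptured side in both conditions. Without hCG it ranged from 10.2 to 50.4 TPM (median 25.5) on the putative unruptured side, against 3.12 to 27.4 TPM (median 10.3) on the putative ruptured side. The ranges overlapped, with 7 of 14 putative ruptured libraries below every putative unruptured one. The log2 fold change was -1.15 ± 0.27 (SE; edgeR adjusted p = 0.00253). Post-hCG, *Plat* ranged from 13.03 to 41.8 TPM (median 22.9) on the unruptured side, against 7.20 to 20.0 TPM (median 13.5) on the ruptured side. There, 11 of 12 unruptured libraries exceeded every ruptured library, and the log2 fold change was -0.53 ± 0.15 (edgeR adjusted p = 0.00884). This call was lost when the 4 groups shared 1 fit (adjusted p = 0.124). With hCG, *Plat* moved by -0.26 (95% interval -0.64 to 0.11) on the unruptured and by 0.36 (interval -0.12 to 0.84) on the ruptured side in log2 units, and neither passed the test. With scaling by library totals the first did pass (-0.45, adjusted p = 0.037).

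*Plau* (chromosome 14, 20836660 to 20843385) was the more abundant activator transcript, at a median of 5.54 to 14.4 times the *Plat* TPM in the 4 groups. Without hCG it ranged from 73.2 to 377 TPM (median 151) on the putative unruptured side, against 61.2 to 243 TPM (median 105) on the putative ruptured side. These ranges overlapped widely, and the difference of -0.54 ± 0.22 in log2 fold change did not pass (edgeR adjusted p = 0.0919). Post-hCG the range was 70.9 to 462 TPM (median 184) on the unruptured side and 36.5 to 143 TPM (median 85.4) on the ruptured side. All 13 ruptured libraries lay below the unruptured median and 6 lay below every unruptured library, for a log2 fold change of -1.28 ± 0.23 (edgeR adjusted p = 0.000113). With hCG *Plau* was lower on the ruptured side (log2 fold change -0.58 ± 0.20, edgeR adjusted p = 0.0135) and moved by 0.15 (95% interval -0.34 to 0.64) on the unruptured side. The interaction of -0.74 ± 0.33 did not pass (edgeR adjusted p = 0.165), so the side difference was not shown to change with hCG.

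*Plaur* (chromosome 7, 24462484 to 24475968), the receptor gene, was near the detection limit. Without hCG it ranged from 0 to 4.42 TPM (median 1.96) on the putative unruptured side, against 0 to 3.70 TPM (median 0.24) on the putative ruptured side, with 138 and 36 counts in all. Post-hCG it ranged from 0.54 to 3.00 TPM (median 1.76) on the unruptured side, against 0 to 4.65 TPM (median 0.82) on the ruptured side. The ranges overlapped in both conditions. In the unfiltered fit the log2 fold change between the sides was -1.36 ± 0.48 without hCG (edgeR adjusted p = 0.0726) and -1.30 ± 0.35 post-hCG (edgeR adjusted p = 0.0097). These compare with 8.49% of genes called without hCG and 10.8% post-hCG in the unfiltered fits. The difference without hCG passed once the 2 libraries with oocyte markers were left out (-1.76, adjusted p = 0.02). It also passed with unfiltered limma on log2(TPM + 1) values (-0.90, limma adjusted p = 0.0307). The difference post-hCG was lost with that limma fit (adjusted p = 0.101). With hCG *Plaur* moved by -0.15 (95% interval -0.75 to 0.45) on the unruptured side, where the unfiltered fit called 29.5% of genes, and by -0.11 (interval -1.24 to 1.02) on the ruptured side. Its interaction was 0.05 (interval -1.24 to 1.35), against 3.21% of genes called.

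Transcripts of plasminogen itself (*Plg*), which is made mainly by the liver, were not seen: 0 counts of 113615440 in the 54 libraries, which allows up to 0.0264 CPM (reads scaled to the library total). This limit covers counting error only. The substrate of both activators was therefore not detectable as a local transcript at this depth.

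*Serpine2* (chromosome 1, 79794197 to 79861180), which encodes protease nexin-1, an inhibitor of thrombin, urokinase and plasmin, had the highest median TPM of the members in each of the 4 groups. Without hCG it ranged from 141 to 418 TPM (median 238) on the putative unruptured side, against 422 to 2736 TPM (median 1731) on the putative ruptured side. Every putative ruptured library exceeded every putative unruptured one, which held for 0.0331% of the genes tested. The log2 fold change was 2.52 ± 0.25, or 5.72-fold (edgeR adjusted p = 1.43e-07). Post-hCG it ranged from 172 to 544 TPM (median 287) on the unruptured side, against 357 to 1362 TPM (median 645) on the ruptured side. The ranges met, with 8 of 13 ruptured libraries above every unruptured one, and the log2 fold change was 1.47 ± 0.20 (edgeR adjusted p = 1.64e-06).

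*Serpine2* was lower with hCG on the ruptured side (log2 fold change -0.92 ± 0.23, edgeR adjusted p = 0.000861), where all 13 libraries lay below the median without hCG. The unruptured side moved by 0.10 (95% interval -0.31 to 0.52). The interaction was -1.03 ± 0.32 (edgeR adjusted p = 0.0316). It did not pass without putative ruptured replicate 13 (adjusted p = 0.057), without the 2 libraries that held oocyte markers (adjusted p = 0.0574) or with no filter on low counts (adjusted p = 0.056).

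*Serpinb2* (chromosome 1, 107511423 to 107535478), which encodes another inhibitor of urokinase, was the only member that passed the test as higher with hCG. On the unruptured side it went from 0 to 6.08 TPM (median 2) without hCG to 0.72 to 50.7 TPM (median 15.03) post-hCG. The ranges overlapped, but 9 of 12 post-hCG libraries exceeded every library without hCG, and the log2 fold change was 3.03 ± 0.46, or 8.18-fold (edgeR adjusted p = 1.7e-06). Cumulus markers did not all move with it. *Ereg*, *Areg* and *Tnfaip6*, the 3 tested in this comparison, were higher with hCG. The medians of *Has2* (0.38 to 0.145 TPM) and *Ptx3* (0.25 to 0.09 TPM), not tested here, fell. Within groups *Serpinb2* rose with the cumulus sum (r = 0.435, adjusted permutation p = 0.0177, and rho = 0.314, adjusted permutation p = 0.119). Without the 2 farthest libraries r was 0.406. By group, r was 0.734 on the unruptured and 0.0789 on the ruptured side post-hCG, and 0.507 and 0.316 on the putative unruptured and putative ruptured sides. *Ereg* was the highest cumulus marker on the unruptured side post-hCG and was among the genes most like *Serpinb2* within groups (r = 0.677). The part of cumulus cells in the rise of *Serpinb2* with hCG was not tested. On the ruptured side it ranged from 0 to 17.6 TPM (median 0.08) without hCG and from 0 to 1 TPM (median 0.18) post-hCG. Putative ruptured replicate 12 held 64 of the 100 counts of its group, and the 13 ruptured post-hCG libraries held 24 counts in all. The change on this side of -1.95 ± 0.79 did not pass in the unfiltered fit (edgeR adjusted p = 0.0528) and was -0.52 without the 2 libraries with oocyte markers.

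Post-hCG, 11 of 12 unruptured libraries exceeded every ruptured library in *Serpinb2*, and the unfiltered log2 fold change was -5.65 ± 0.55 (edgeR adjusted p = 1.18e-09). Without hCG the corresponding value was -0.70 ± 0.60 (edgeR adjusted p = 0.531), which became -2.01 ± 0.56 (adjusted p = 0.0184) when the 2 libraries with oocyte markers were left out. The interaction of -4.97 ± 1.02 passed (edgeR adjusted p = 0.000895) and was -3.69 (adjusted p = 0.026) without those libraries. In the annotation, *Serpinb10* overlaps 6476 bases of *Serpinb2* on the same strand, and how reads there were assigned is not given in the sources used here.

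**Figure D2:**
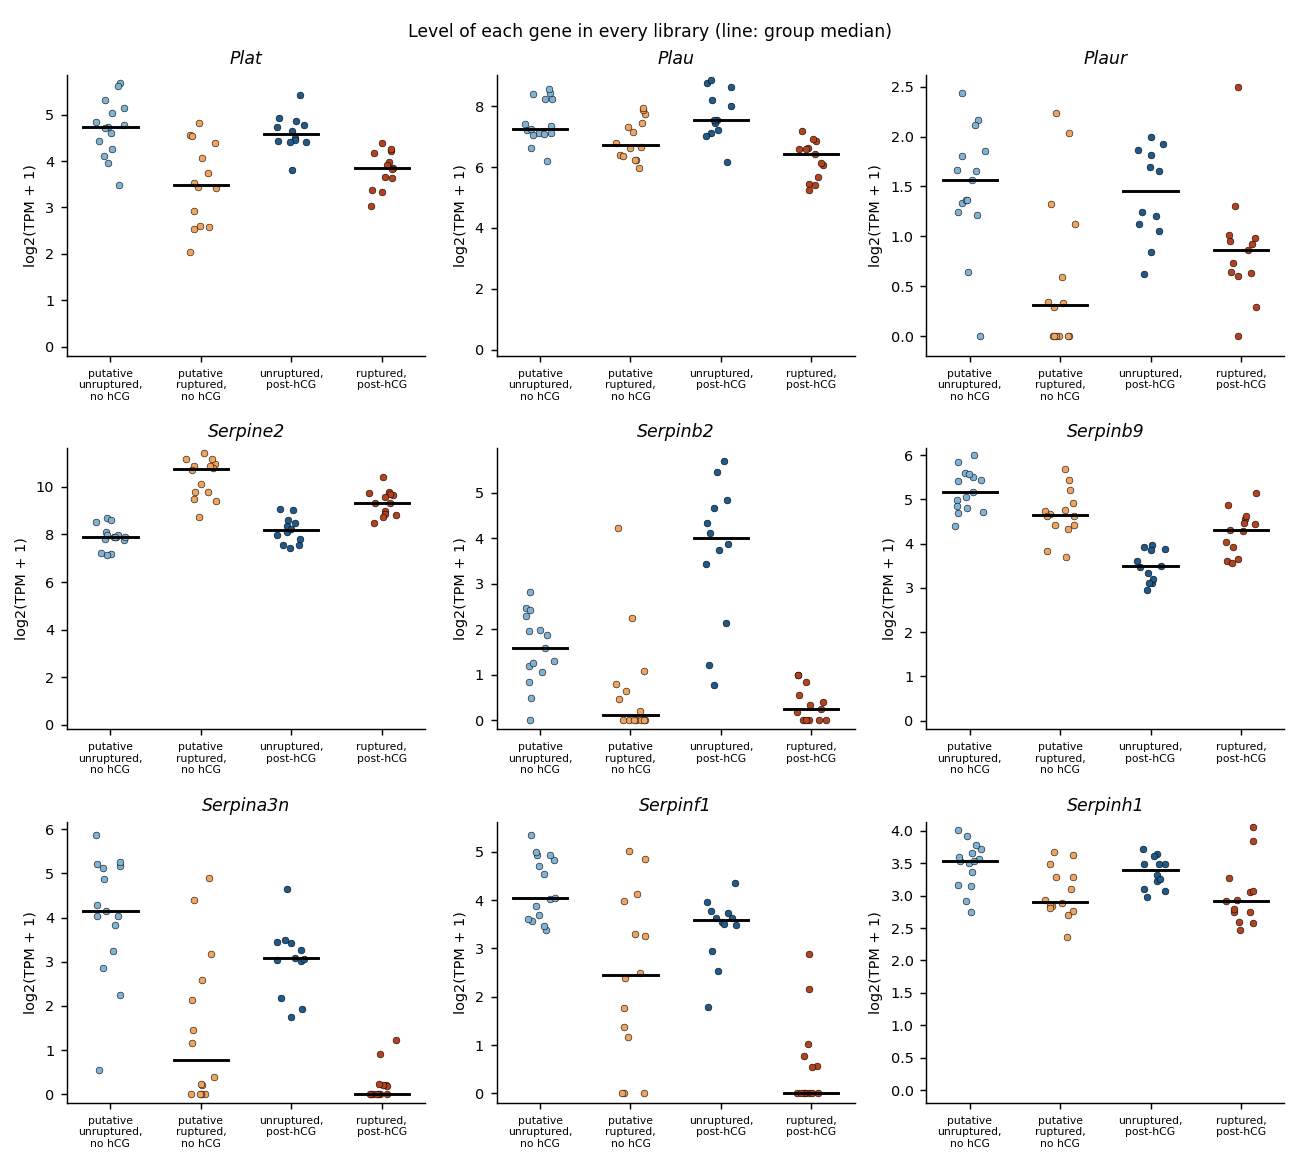
Level of each member as log2(TPM + 1) in the 4 groups, 1 point per library and a line at the group median. Points of *Serpine2* on the putative ruptured side (422 to 2736 TPM) all lie above those on the putative unruptured side (141 to 418 TPM), and *Serpinb2* rises above its other groups on the unruptured side post-hCG (median 15.03 TPM).

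Summed per library, the transcripts of *Plat* and *Plau* and those of their inhibitors *Serpine2* and *Serpinb2* differed in balance between the sides. The inhibitor sum was a median of 1.31 times the activator sum on the putative unruptured side (range 0.436 to 2.73) and 13.5 times on the putative ruptured side (range 2.52 to 31.8). Post-hCG the ratio was 1.32 (range 0.349 to 5.77) on the unruptured and 7.60 (range 4.18 to 11.7) on the ruptured side. It exceeded 1 in 8 of 15 and 8 of 12 libraries of the unruptured sides and in all libraries of both ruptured sides. The inhibitor sum holds only these 2 genes and not every inhibitor of the activators, and *Serpine2* made up nearly all of it, at a median of 95.3% on the unruptured side post-hCG, the lowest of the groups. These ratios compare transcripts per length, not proteins or activity, and were given without a test since *Serpine2* dominates them.

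**Figure D3:**
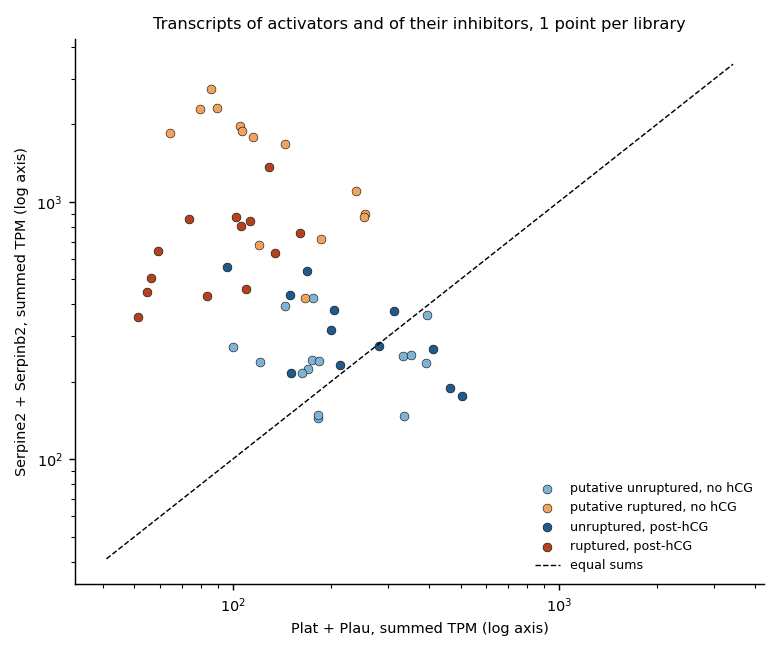
Summed TPM of the inhibitors *Serpine2* and *Serpinb2* (vertical, log axis) against that of the activators *Plat* and *Plau* (horizontal, log axis), 1 point per library, with a dashed line at equal sums. All points of both ruptured sides lie above the line, whereas points of the unruptured sides lie on either side of it.

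*Serpinb9* (chromosome 13, 33003250 to 33017957), whose product protects cells from granzyme B, was lower with hCG on the unruptured side. There it ranged from 20.1 to 63.3 TPM (median 34.7) without hCG and from 6.78 to 14.8 TPM (median 10.2) post-hCG. The ranges did not overlap, as was true of 5.27% of genes tested, and the log2 fold change was -1.90 ± 0.18 (edgeR adjusted p = 2.01e-10). On the ruptured side it ranged from 12.0 to 50.5 TPM (median 24) without hCG and from 10.9 to 34.5 TPM (median 18.8) post-hCG. This change of -0.20 (95% interval -0.55 to 0.16) did not pass with TMM scaling, although it did with scaling by library totals (-0.56, adjusted p = 0.00831).

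The side difference in *Serpinb9* therefore had opposite signs in the media. It was lower on the putative ruptured side (log2 fold change -0.53 ± 0.17, edgeR adjusted p = 0.0288) and higher on the ruptured side post-hCG (1.17 ± 0.19, edgeR adjusted p = 2.22e-05), where 9 of 13 libraries exceeded every unruptured one. The interaction was 1.70 ± 0.26 (edgeR adjusted p = 1.87e-05). The difference without hCG was lost without putative unruptured replicate 13 (adjusted p = 0.0548), without the 2 libraries with oocyte markers (adjusted p = 0.0664) and with limma (adjusted p from 0.0505 to 0.0988).

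*Serpina3n* (chromosome 12, 104406729 to 104414329) was lower on the ruptured side in both conditions. It ranged from 0.47 to 57.9 TPM (median 16.6) on the putative unruptured side, against 0 to 28.6 TPM (median 0.78) on the putative ruptured side. Here 7 of 14 putative ruptured libraries lay below every putative unruptured one, and the log2 fold change was -2.10 ± 0.62 (edgeR adjusted p = 0.0154). Post-hCG it ranged from 2.34 to 24.1 TPM (median 7.44) on the unruptured side, against 0 to 1.34 TPM (median 0) on the ruptured side. These ranges did not overlap, as was true of 1.18% of genes tested, and the log2 fold change was -4.85 ± 0.47 (edgeR adjusted p = 1.82e-08). The 13 ruptured libraries held 20 counts, 16 of them in replicates 4 and 13.

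*Serpina3n* was lower with hCG on the unruptured side (log2 fold change -1.40 ± 0.40, edgeR adjusted p = 0.00402) and, in the unfiltered fit, on the ruptured side (-4.13 ± 0.86, edgeR adjusted p = 0.000157). The first did not pass with limma on log2(TPM + 0.1) (adjusted p = 0.0875). For the second, putative ruptured replicates 11 and 12 held 272 of the 388 counts of the group without hCG. The interaction of -2.75 ± 1.08 did not pass (edgeR adjusted p = 0.0989). *Serpina3n* has close paralogs such as *Serpina3g*, and the counting program is not given, so reads shared between them could be split.

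*Serpinf1* (chromosome 11, 75409769 to 75422701) followed the same order of groups. It ranged from 9.45 to 40.0 TPM (median 15.4) on the putative unruptured side, against 0 to 31.3 TPM (median 4.45) on the putative ruptured side. Most putative ruptured libraries, 10 of 14, lay below every putative unruptured one, and the log2 fold change was -1.38 ± 0.43 (edgeR adjusted p = 0.0244). This call did not pass with DESeq2 (adjusted p = 0.0711). Post-hCG it ranged from 2.45 to 19.4 TPM (median 11.04) on the unruptured side, against 0 to 6.39 TPM (median 0) on the ruptured side, with an unfiltered log2 fold change of -3.50 ± 0.44 (edgeR adjusted p = 1.63e-07). Only 25 counts fell in the ruptured libraries, 21 of them in replicates 4 and 13. With hCG *Serpinf1* was lower on the unruptured side (-0.97 ± 0.28, edgeR adjusted p = 0.00379) and on the ruptured side in the unfiltered fit (-3.09 ± 0.68, edgeR adjusted p = 0.000299). The interaction of -2.14 ± 0.77 did not pass (edgeR adjusted p = 0.0712), but did with library totals (adjusted p = 0.0489) and without putative unruptured replicate 7 (adjusted p = 0.0498). No member had ranges that did not overlap between the media on the ruptured side, as was true of 7.77% of genes tested.

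Both genes moved with the theca and stroma marker sum. Within groups, over the 54 libraries, Pearson's r with that sum was 0.865 for *Serpinf1* (permutation p = 1e-05, the smallest that 100000 resamples can give, adjusted p = 0.00024 over 72 relations; Spearman's rho 0.701, permutation p = 1e-05) and 0.766 for *Serpina3n* (permutation p = 1e-05, adjusted p = 0.00024; rho 0.63, permutation p = 1e-05). Without the 2 libraries farthest from the median, r was 0.855 and 0.719. Ruptured replicates 4 and 13, which held most of the counts of both genes in their group, also had its highest theca and stroma sums, at 49.2 and 50.7 TPM. The part of these cells in the side differences was not tested.

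**Figure D4:**
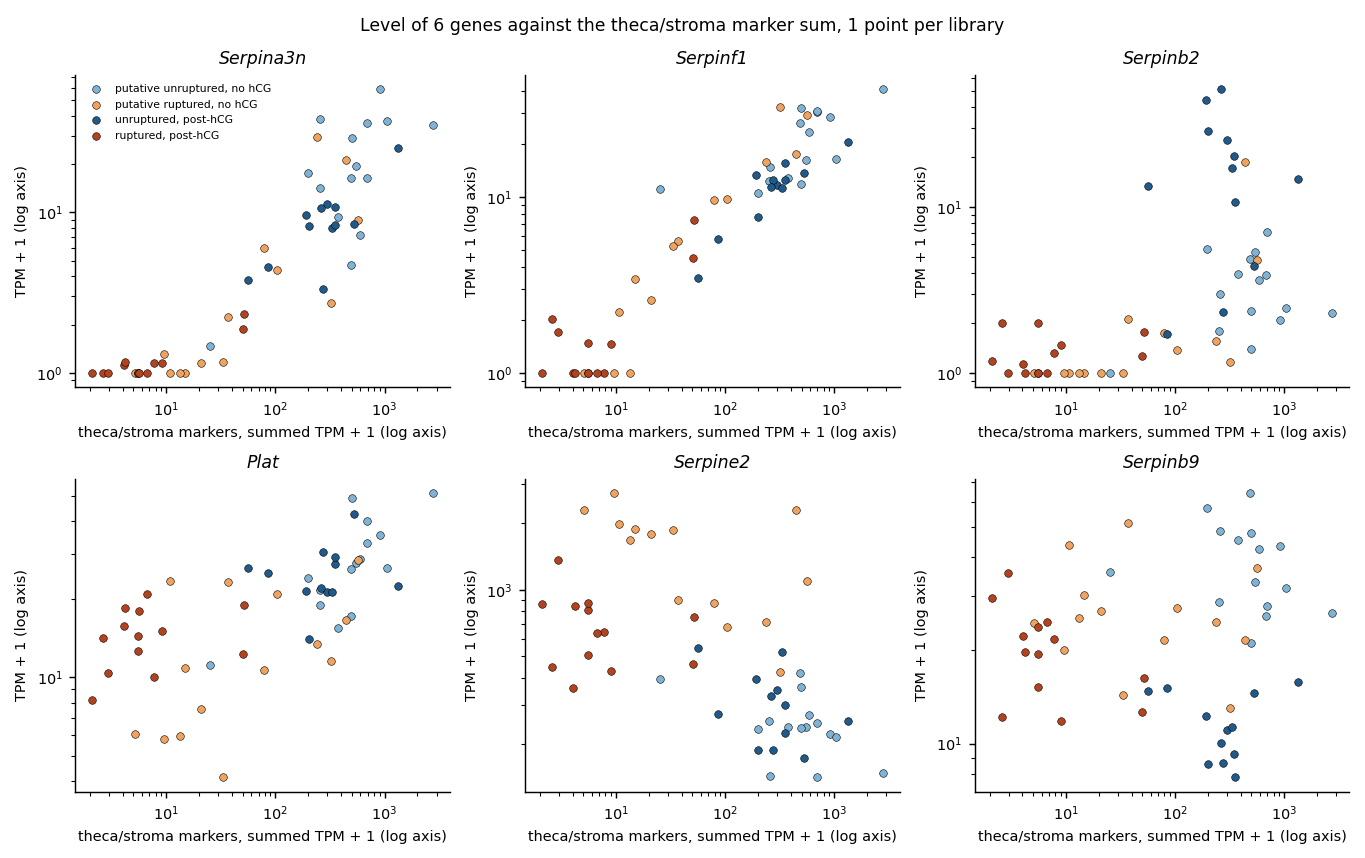
TPM + 1 of 6 members (vertical, log axis) against the summed TPM + 1 of 8 theca and stroma markers (horizontal, log axis), 1 point per library, coloured by group. *Serpina3n* and *Serpinf1* climb with the marker sum within groups (r of 0.766 and 0.865), whereas *Serpinb9* shows no such slope (r of -0.25, adjusted permutation p = 0.188).

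*Serpinh1* (chromosome 7, 99345376 to 99353239) stayed within a narrow range. It ranged from 5.70 to 15.2 TPM (median 10.6) on the putative unruptured side, against 4.14 to 11.7 TPM (median 6.50) on the putative ruptured side. Those ranges overlapped, and the log2 fold change of -0.44 ± 0.14 passed (edgeR adjusted p = 0.027) but not without putative unruptured replicate 7 (adjusted p = 0.0555). Post-hCG it ranged from 6.90 to 12.2 TPM (median 9.58) on the unruptured side, against 4.52 to 15.7 TPM (median 6.58) on the ruptured side, and the log2 fold change of -0.12 (95% interval -0.38 to 0.13) did not pass. The median log2 difference of all genes tested was -0.21 on log2(TPM + 1) and 0.01 with TMM scaling. With hCG *Serpinh1* moved by -0.10 (interval -0.39 to 0.20) on the unruptured and 0.22 (interval -0.01 to 0.46) on the ruptured side.

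Members also varied together between libraries of the same group. Of 36 pairs, 14 had an adjusted permutation p under 0.05 for Pearson's r within groups, whereas by Spearman's rho only *Serpina3n* with *Serpinf1* passed. That pair had the highest coefficient (r = 0.603, adjusted permutation p = 0.00108; rho = 0.469, adjusted permutation p = 0.0216; r = 0.604 without the 2 farthest libraries). *Serpine2* was negatively related to *Serpinf1* (r = -0.46, adjusted permutation p = 0.0174; rho = -0.30, adjusted permutation p = 0.115) and to *Plat* (r = -0.39, adjusted permutation p = 0.0325; rho = -0.37, adjusted permutation p = 0.0734). *Plat* and *Plau* were not shown to vary together (r = 0.28, adjusted permutation p = 0.0863; rho = 0.253, adjusted permutation p = 0.155).

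**Figure D5:**
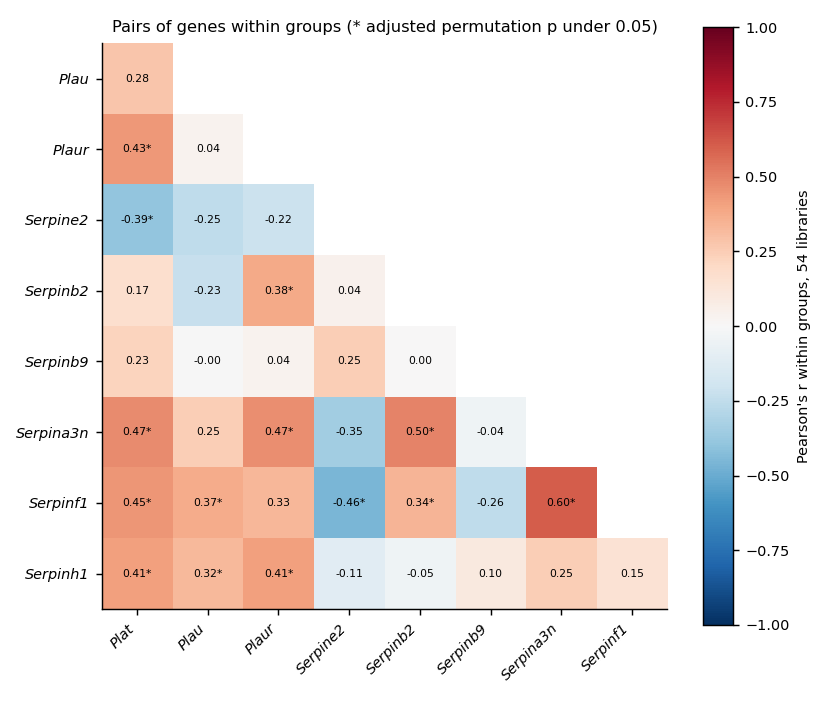
Pearson's r of log2(TPM + 1), centred on group means, for the 36 pairs of members over 54 libraries; colour and number give r, and stars mark an adjusted permutation p under 0.05. *Serpine2* has negative values with *Plat* (-0.39) and *Serpinf1* (-0.46), and the highest value joins *Serpina3n* and *Serpinf1* (0.60).

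Over all 8 marker lists, 23 of 72 relations with a member passed by r and 10 by rho. *Serpine2* rose with the granulosa marker sum within groups (r = 0.637, adjusted permutation p = 0.00024; rho = 0.555, adjusted permutation p = 0.0012; r = 0.601 without the 2 farthest libraries) and fell with the theca and stroma sum (r = -0.48, adjusted permutation p = 0.00615; rho = -0.43, adjusted permutation p = 0.0226). *Plat* had the opposite signs, with r = -0.54 for granulosa (adjusted permutation p = 0.00278; rho = -0.25, adjusted permutation p = 0.228) and r = 0.518 for theca and stroma (adjusted permutation p = 0.00547; rho = 0.515, adjusted permutation p = 0.00252). The relation of *Plat* with the granulosa sum was negative only without hCG (r of -0.73 among putative unruptured and -0.71 among putative ruptured libraries) and had the other sign post-hCG (r of 0.411 on the unruptured and 0.18 on the ruptured side). *Plaur* also rose with the theca and stroma sum (r = 0.544, adjusted permutation p = 0.00156; rho = 0.426, adjusted permutation p = 0.0226). This rise was seen without hCG (r of 0.621 among putative unruptured and 0.828 among putative ruptured libraries). Post-hCG the r of *Plaur* was near 0 (0.051 for unruptured and 0.104 for ruptured libraries). Relations that passed by r and not by rho included *Serpina3n* with immune markers (r = 0.568, adjusted permutation p = 0.0013; rho = 0.232, adjusted permutation p = 0.27), *Serpinb2* with endothelial markers (r = 0.438, adjusted permutation p = 0.0135; rho = 0.299, adjusted permutation p = 0.141) and *Plat* with cumulus markers (r = 0.451, adjusted permutation p = 0.0203; rho = 0.264, adjusted permutation p = 0.212). *Serpinf1* rose with smooth muscle markers by both (r = 0.658, adjusted permutation p = 0.00054; rho = 0.390, adjusted permutation p = 0.0415). Here too r was higher without hCG (0.568 for putative unruptured, 0.907 for putative ruptured libraries) than post-hCG (0.224 for unruptured, 0.010 for ruptured libraries). The granulosa sum, dominated by *Inha*, had a median of 2615 TPM (range 803 to 5414) on the putative unruptured side and 9185 TPM (range 3207 to 13638) on the putative ruptured side. Post-hCG it was 1388 TPM (range 882 to 1933) on the unruptured and 1151 TPM (range 750 to 1401) on the ruptured side. *Amh*, a member of this list, had a median of 0 TPM in each of the 4 groups. The part of granulosa or theca cells in the differences of *Serpine2* and *Plat* was not tested.

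Among 9887 genes averaging 1 TPM or more, those most like *Serpine2* within groups were *Zpld1*, *Socs2* and *Hey2* (r of 0.754, 0.691 and 0.686 over 54 libraries). For *Plat* these were *Msn*, *Timp1* and *Lgals1* (0.792, 0.773 and 0.760), for *Plau* *Sdc4*, *Enpp1* and *Hspg2* (0.639, 0.628 and 0.622), and for *Plaur* *Cald1*, *Tpm1* and *Col6a1* (0.629, 0.623 and 0.613). *Serpinb2* stood closest to *Sat1*, the epidermal growth factor family gene *Ereg*, and *Vsig8* (0.710, 0.677 and 0.628). *Serpinb9* was most like another clade B serpin gene, *Serpinb6b* (0.753), then *Mcub* and *Ext1* (0.605 and 0.550). The genes nearest *Serpina3n* were its paralog *Serpina3g*, the cholesterol transport gene *Star*, and *Col3a1* (0.847, 0.840 and 0.784), and those nearest *Serpinf1* were the matrix genes *Col1a2*, *Bgn* and *Col3a1* (0.879, 0.866 and 0.861). *Serpinh1* was closest to the collagen-modifying gene *Crtap*, *Txndc5* and *Coro1b* (0.735, 0.732 and 0.691).

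The wider pathway was described with a list of 44 genes of plasminogen binding, coagulation, receptors that clear protease complexes, and other proteases and inhibitors, of which 2 had no count. Of those tested, 2 were higher and 6 lower on the putative ruptured side (20 tested), and 1 was higher and 9 lower on the ruptured side post-hCG (19 tested). In all, 40% and 52.6% of the tested list genes were called, beside 17.8% and 21.4% of all genes. The median log2 fold change of the list was -0.31 and -0.21 in these comparisons, beside -0.01 and 0.01 over all genes. *Igf2r*, named after its value was seen, was the other gene that was higher on the putative ruptured side (0.67). *Htra1*, a secreted serine protease, was higher on the ruptured side in both (1.75 ± 0.25, edgeR adjusted p = 6.65e-06, and 1.05 ± 0.14, edgeR adjusted p = 1.81e-06). *Thbd*, the thrombin receptor thrombomodulin, was lower in both (-1.41 ± 0.45, edgeR adjusted p = 0.0273, and -2.19 ± 0.28, edgeR adjusted p = 7.68e-07), although the first missed the threshold with DESeq2 (adjusted p = 0.0506). Without hCG, *Mrc2* (-1.56), *A2m* (-1.36) and *Anxa2* (-0.94) were also among the genes that were lower on the putative ruptured side in log2 fold change, of which *Mrc2* and *A2m* did not pass in every alternative. Post-hCG, *Tfpi* (-0.85), *Fn1* (-0.66), *Lrp1* (-0.57) and *Anxa2* (-0.33) were lower on the ruptured side, of which *Fn1* and *Anxa2* did not pass in every alternative.

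With hCG, 7 genes of this list rose and 6 fell on the unruptured side (21 tested), and 8 rose and 6 fell on the ruptured side (19 tested). These calls were 61.9% and 73.7% of the list genes tested, beside 53.1% and 60.1% of all genes, and the median log2 fold change of the list was 0.11 and 0.17, beside -0.03 and -0.0012. *Spint1*, which encodes a membrane inhibitor of serine proteases, rose from medians of 0.58 to 3.93 TPM on the unruptured and 0.575 to 3.37 TPM on the ruptured side (log2 fold change 2.49 ± 0.24 and 3.05 ± 0.30, edgeR adjusted p = 3.04e-10 and 1.26e-10). *Anxa2*, the annexin of the complex that binds plasminogen at the cell surface, rose by 1.11 ± 0.18 and 1.73 ± 0.16, and its partner *S100a10* by 0.69 ± 0.18 and 1.05 ± 0.19. The plasminogen receptor gene *Plgrkt* fell on both sides (-1.06 ± 0.23 and -1.13 ± 0.17). *Vldlr* and *Htra1* rose on the unruptured side (1.39 and 1.63), *Prss35* rose on the ruptured side (2.01), each of them also rising on the other side, and *Prss23* fell on both (-1.41 and -2.52). *Lrp1*, the receptor that internalizes activator-inhibitor complexes, fell on the ruptured side (-0.37 ± 0.14, edgeR adjusted p = 0.0185) and did not pass on the unruptured side (0.30, edgeR adjusted p = 0.135). In the interaction, *Prss35* was higher (1.12) and *Procr* (-2.32), *Prss23* (-1.11), *Igf2r* (-0.88) and *Lrp1* (-0.68) were lower, among 23 tested. All of these but *Prss23* missed the threshold in at least 1 alternative.

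The other serpins comprised 55 genes, 13 of them without a count, and few passed the filter on low counts. Between the sides, 2 of 6 tested were lower on the putative ruptured side, namely *Serpina3g* (-1.61 ± 0.48) and the complement C1 inhibitor gene *Serping1* (-0.96 ± 0.26), beside 17.8% of all genes called. Post-hCG, 1 of 4 was higher on the ruptured side, *Serpinb6b* (0.56 ± 0.17, edgeR adjusted p = 0.0186), beside 21.4% of all genes called. This call was lost when libraries were scaled by totals (edgeR adjusted p = 0.0676). It was also lost in each limma fit (0.22, limma adjusted p from 0.307 to 0.453). All 7 tested on the unruptured side changed with hCG, 6 of them downward and *Serpini1*, named after its value was seen, upward (1.07), and all 4 tested on the ruptured side fell, beside 53.1% and 60.1% of all genes called. *Serping1* had the steepest fall, from a median of 18.4 to 2.01 TPM on the unruptured side and, for the ruptured side, from 7.88 to 0.16 TPM (log2 fold change -3.46 ± 0.32 and -5.18 ± 0.40, edgeR adjusted p = 1.07e-10 and 5.20e-13). On the unruptured side *Serpinb9b* (-3.10), *Serpina3g* (-2.84) and *Serpinb6b* (-1.64) fell as well, and on the ruptured side *Serpinb1a* (-1.29), *Serpinb6b* (-0.99) and *Serpinb6a* (-0.54). In the interaction only *Serpinb6b* passed of 8 tested (0.65 ± 0.22, edgeR adjusted p = 0.049), and it was lost in several alternatives, library totals among them (adjusted p = 0.103). The median log2 fold change of the tested other serpins with hCG was -1.64 and -1.14, beside -0.03 and -0.0012 over all genes.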

How the data were processed

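RNA of single follicle sides was sequenced by Smart-Seq2 and Nextera XT. Reads were mapped by the authors to GRCm38 with HISAT2. The deposited tables hold estimated counts and TPM of coding genes for 54 libraries. TPM columns sum to 585982 to 678417, so they are part of a larger table. The study's methods name a ComBat-seq batch correction. Whether these tables precede it, the counting program and the annotation are not given in the sources used here. All columns matched a sample by name. The labels give no batch.

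Estimated counts were rounded and tested on the whole table with edgeR 4.0.16 (filterByExpr, minimum count 10, minimum total 15; TMM; quasi-likelihood test; Benjamini-Hochberg adjustment over all genes tested; threshold 0.05). Members under the filter were read from a fit with no filter. limma 3.58.1 on log2(TPM + 1), DESeq2 1.42.0 and other settings were alternatives. The code was tested on simulated data. Each comparison used only its groups, the interaction all 4. Correlations used log2(TPM + 1) centred within groups with 100000 permutations. Intervals of 95% use the standard error. Depth limits what can be said of members with few counts.

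Named were all members, up to 4 called genes with the largest fold change per list and comparison with a mean of at least 1 CPM in the higher group, 5 further genes of the pathway (*Plg*, *Plgrkt*, *Lrp1*, *Anxa2* and *S100a10*), and the 3 genes most like each member. 1 further gene, which is no member, is not reported here and was left out of the inhibitor sum. The members and lists were chosen with earlier results of these data known. Gene positions are from GENCODE on GRCm38 and promoters from RefSeq.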

Additional observations from a re-analysis of the deposited data

Results flagged for a closer look

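For 3 members the effect of the follicle side with hCG differed from that without hCG by the interaction test. *Serpinb9* had an interaction of 1.70 ± 0.26 in log2 units (SE, edgeR adjusted p = 1.87e-05), since it was lower on the putative ruptured side (-0.53) and higher on the ruptured side post-hCG (1.17). Its difference without hCG did not pass in several alternatives, limma among them (limma adjusted p from 0.0505 to 0.0988). *Serpinb2* had an interaction of -4.97 ± 1.02 (edgeR adjusted p = 0.000895), with 1 putative ruptured library holding 64 of 100 counts of its group. *Serpine2* had an interaction of -1.03 ± 0.32 (edgeR adjusted p = 0.0316), as its excess on the ruptured side was 2.52 without hCG and 1.47 post-hCG. This interaction did not pass without putative ruptured replicate 13 (edgeR adjusted p = 0.057) or with no filter on low counts (edgeR adjusted p = 0.056). It also did not pass without the 2 libraries with oocyte markers (edgeR adjusted p = 0.0574).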

How the results depend on the processing

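Scaling by library totals moved the median of all genes in the side comparison post-hCG from 0.01 to -0.14 on the log2 scale and the share of calls that were higher from 47.0% to 17.8% (397 higher and 1830 lower, against 862 and 971). The corresponding shares were 49.7% and 39.3% for the sides without hCG, 47.8% and 27.5% for hCG within the unruptured libraries, 49.4% and 24.5% within the ruptured ones, and 47.8% and 25.8% in the interaction test. With limma on log2(TPM + 1) the share was 9.25% post-hCG, 34.1% for hCG within the ruptured libraries and 11.4% in the interaction test. limma called 999, 1012 or 1034 genes between the sides without hCG, against 1613 with edgeR. Members called between the sides post-hCG numbered 8 rather than 5 with DESeq2 or no filter on low counts, and members called with hCG on the ruptured side 4 rather than 2 with DESeq2, with no filter, with unfiltered limma or with all 4 groups in 1 fit, since members under the filter then enter.

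Directions reversed only for differences that did not pass. With hCG on the unruptured side, library totals gave -0.048 for *Plau* and -0.10 for *Serpine2*, which was -0.0054 without unruptured replicate 8. On the ruptured side, *Serpinh1* was -0.086 with library totals and -0.035, -0.043 and -0.035 with limma, and *Plaur* was 0.29 with unfiltered limma and 0.32 without the libraries with oocyte markers. *S100a10* between the sides post-hCG was -0.14 with library totals, -0.019 with the replicate block and -0.15 with each limma fit. *Plgrkt* in the interaction was 0.037, 0.12 and 0.037 with limma, and *Lrp1* between the sides without hCG was -0.018 without the libraries with oocyte markers. Leaving out these libraries was chosen after seeing the data, as were the relations with marker sums.

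Same-numbered libraries did not deviate together on average (mean r of -0.01 to 0.04, with 1 or 2 pairs over 0.1 in each comparison). The highest single r between the putative sides without hCG was 0.308. These values cannot tell whether same-numbered sides came from the same follicle. With the replicate block, 5 rather than 3 members were called in the interaction, as *Serpina3n* (-3.10, adjusted p = 0.0407) and *Serpinf1* (-2.90, adjusted p = 0.0196) joined, and *Serpinh1* was lost between the sides without hCG (-0.38, adjusted p = 0.0741). Of the 14 pairs of members, 3 were lost on log2 CPM.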

Other observations

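Libraries of one group differed in the genes that follow the theca and stroma markers, and these were picked out after their values were seen. On the putative ruptured side, replicates 1, 5, 11 and 12 had theca and stroma sums of 564, 320, 237 and 441 TPM, whereas the other 10 libraries had at most 103 TPM. In these 4, *Serpinf1* was 28.1, 31.3, 14.7 and 16.6 TPM and *Serpina3n* was 8.03, 1.75, 28.6 and 20.1 TPM. On the putative unruptured side, replicate 14 had the lowest such sum (24.3 TPM, the next lowest being 197 TPM). It also had the lowest *Serpina3n* (0.47 TPM) and *Plat* (10.2 TPM) of its group, no count of *Plaur* or *Serpinb2*, and a *Serpinf1* level of 10.1 TPM.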
